A study of Homo sapiens with 16 samples.

Results

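The CCN proteins and the target genes of YAP and TAZ were examined as a set of 10 genes chosen by name, out of 57820 genes counted in the series. CCN family members in the set, listed here with their older names, were CCN1 (CYR61), CCN2 (CTGF), CCN3 (NOV), CCN4 (WISP1) and CCN5 (WISP2). The rest were ANKRD1, AMOTL2, AJUBA, LATS2 and CRIM1. All 10 had an entry in both count tables and all 10 had enough counts to be tested in both serum conditions, with CCN4 and CCN5 at very low levels. The libraries came from MDA-MB-231 and from MDA-MB-436, both triple-negative breast cancer lines of mesenchymal character. Every line carried 7TGP, a reporter that places eGFP under Tcf/Lef binding sites, and was sorted by flow cytometry into an eGFP-negative subline (7TGP-NEG) and an eGFP-positive subline (7TGP-POS). The 8 groups were these 4 sublines in low serum (0.5% FBS, day 3) and in standard serum (10% FBS, day 6), with 2 libraries each. Each subline is a single sorted population, so a difference between 7TGP-POS and 7TGP-NEG is a difference between 2 populations. Its p-value sets that difference against the spread between duplicate cultures, estimated jointly over all 4 sublines of a serum condition. Per the study's methods the lines also had different base media, which cannot be told apart from the cell line.

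CCN proteins are secreted, cysteine-rich matricellular proteins that bind integrins, heparan sulphate proteoglycans and growth factors. CCN1 and CCN2 are among the best known targets of the co-activators YAP and TAZ (gene WWTR1), which bind DNA through the TEAD transcription factors and are held in the cytoplasm when the Hippo kinases LATS1 and LATS2 phosphorylate them. YAP and TAZ respond to cell density, stiffness of the substrate, actin tension and serum, and they meet the Wnt pathway at several points, including the β-catenin destruction complex.

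Total counts were 27918418 to 32667756 per low serum library and 31827130 to 46044073 per standard serum library. Levels are given below as TMM-scaled CPM, with each library's value in the order replicate 1 and replicate 2. The serum conditions also differed in the day of harvest and, per the study's methods, in RNA selection, library kit and sequencer, so levels in low and standard serum are set side by side without a test. In standard serum the duplicates of MDA-MB-436 7TGP-POS stood apart, with a correlation of -0.57 across 12629 genes between the log2 ratio of replicate 1 to replicate 2 and gene GC content, against -0.11 to 0.22 in the other 7 groups. Vimentin (VIM), the mesenchymal intermediate filament, had group means of 672 to 5520 CPM, while E-cadherin (CDH1) had group means of at most 0.31 CPM and the fibroblast markers PDGFRA, DCN, LUM and DPT summed to at most 6.88 CPM in any library. KRT19, a keratin on the epithelial list, nevertheless had group means of 631 to 926 CPM in MDA-MB-231, and the 5 epithelial markers summed to 671 to 1039 CPM in MDA-MB-231 libraries and 6.25 to 10.1 CPM in MDA-MB-436 libraries.

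The 250 bases before the transcription start of CCN2 and ANKRD1 are shown. In standard serum CCN2 had the largest change between 7TGP-POS and 7TGP-NEG among the 10, and ANKRD1 the largest difference between the cell lines. They were also chosen because the letters GGAATG, the core recognised by TEAD proteins, occur several times in both. Their number of matches is therefore not a result about the set. The sequences are from RefSeq, whose table is on GRCh38.p14, and each matched GRCh37 once, at chr6:132272513-132272762 (minus strand) for CCN2 and chr10:92680845-92681094 (minus strand) for ANKRD1. Both are written 5′ to 3′ on the gene's strand, with GGAATG and TGANTCA in capitals. TGANTCA is a loose form of the AP-1 motif that allows any base at N.
CCN2: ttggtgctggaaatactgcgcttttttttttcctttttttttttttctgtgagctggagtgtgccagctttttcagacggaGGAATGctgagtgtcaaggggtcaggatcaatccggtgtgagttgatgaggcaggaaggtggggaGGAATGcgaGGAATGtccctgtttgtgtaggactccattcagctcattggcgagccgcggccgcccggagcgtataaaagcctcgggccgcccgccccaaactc
ANKRD1: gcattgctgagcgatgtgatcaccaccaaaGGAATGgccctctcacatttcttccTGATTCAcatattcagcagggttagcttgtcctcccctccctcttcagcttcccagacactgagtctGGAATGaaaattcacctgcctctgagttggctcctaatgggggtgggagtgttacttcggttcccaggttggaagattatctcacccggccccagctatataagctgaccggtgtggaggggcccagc
The CCN2 stretch held GGAATG 3 times, beginning 169, 104 and 95 bases before the start, and 3 or more matches in the same stretch were found in 29 of 35116 RefSeq promoters (0.0826%). The ANKRD1 stretch held it at 220 and 128 bases before the start, with 1 match to the loose AP-1 form, TGATTCA, between them at 195 bases. Over whole windows, which add the 50 bases after the start, at least 1 GGAATG on either strand was present in 14.0% of all promoters and TGANTCA in 7.71%. One of 2 AMOTL2 windows held GGAATG on the other strand 69 bases before the start and ATCAAAG, a TCF/LEF motif present in 2.62% of promoters, on the other strand 101 bases before it. One of 2 AJUBA windows held GGAATG 59 bases before the start, and the LATS2 window held it 9 bases after the start. No CArG box, the SRF motif found in 1.29% of promoters, was in these 7 windows of 5 genes. A match is a string of letters and no measure of binding. CCN1, CCN3, CCN4, CCN5 and CRIM1 had no entry in the table.

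**Figure D1:**
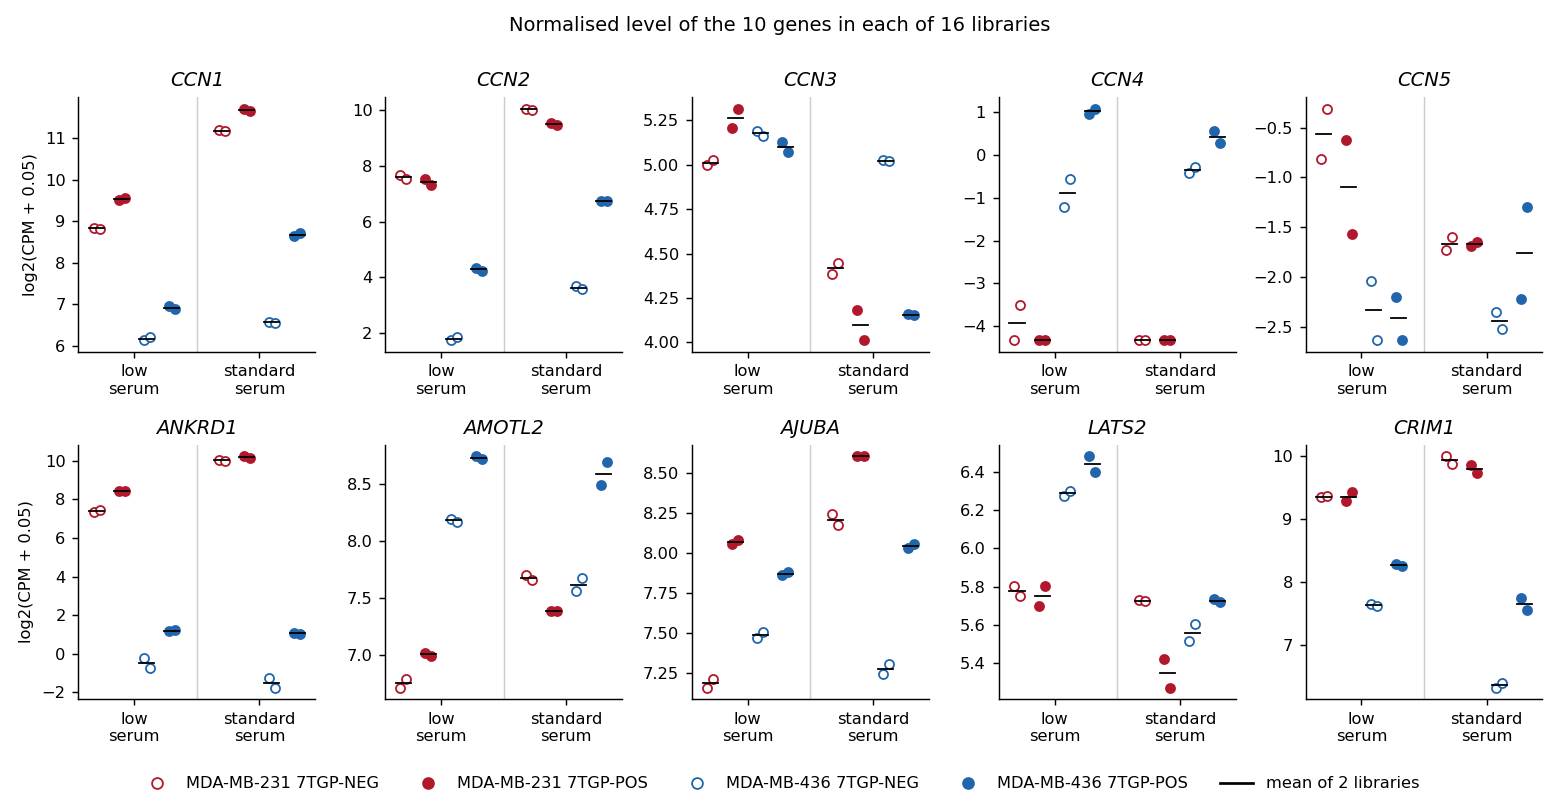
Level of each of the 10 genes in each library, as log2(CPM + 0.05), with a separate vertical scale per gene; open points are 7TGP-NEG, filled points 7TGP-POS, red MDA-MB-231, blue MDA-MB-436, and bars the mean of the 2 plotted values. CCN1, CCN2, ANKRD1 and CRIM1 lie higher in MDA-MB-231 than in MDA-MB-436 in every library, and CCN4 has counts in MDA-MB-436 with at most 1 count in any MDA-MB-231 library.

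The first question was whether these genes differed between Wnt reporter-positive and reporter-negative cells of each line. In MDA-MB-436 they mostly rose, and in MDA-MB-231 the changes were smaller and of mixed direction. Differential expression was defined as an adjusted p under 0.05 in edgeR's quasi-likelihood test, Benjamini-Hochberg adjusted over all genes tested, together with a change of at least 2-fold. In MDA-MB-436, 3 of the 10 genes were higher in 7TGP-POS in low serum (CCN2, CCN4, ANKRD1) and 4 in standard serum (CCN1, CCN2, ANKRD1, CRIM1), with none lower. Among all genes tested, 6.52% and 6.47% were called higher by this rule. In MDA-MB-231, 1 of the 10 was called in low serum (ANKRD1, higher) and 0 in standard serum, where 5.9% and 7.69% of all genes were called in either direction and 3.5% and 4.96% higher. By adjusted p alone, 8 of the 10 passed in each serum condition in MDA-MB-436 (8 higher in low serum, 7 higher and 1 lower in standard serum), against 52% and 49.5% of all genes. In MDA-MB-231, 6 passed in each (5 higher and 1 lower in low serum, 2 higher and 4 lower in standard serum), against 38.9% and 33% of all genes. The median log2 fold change of the 10 was 0.59 and 0.94 in MDA-MB-436, beside 0.01 and 0.00 over all genes, and 0.13 and -0.07 in MDA-MB-231, beside -0.01 and 0.

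**Figure D2:**
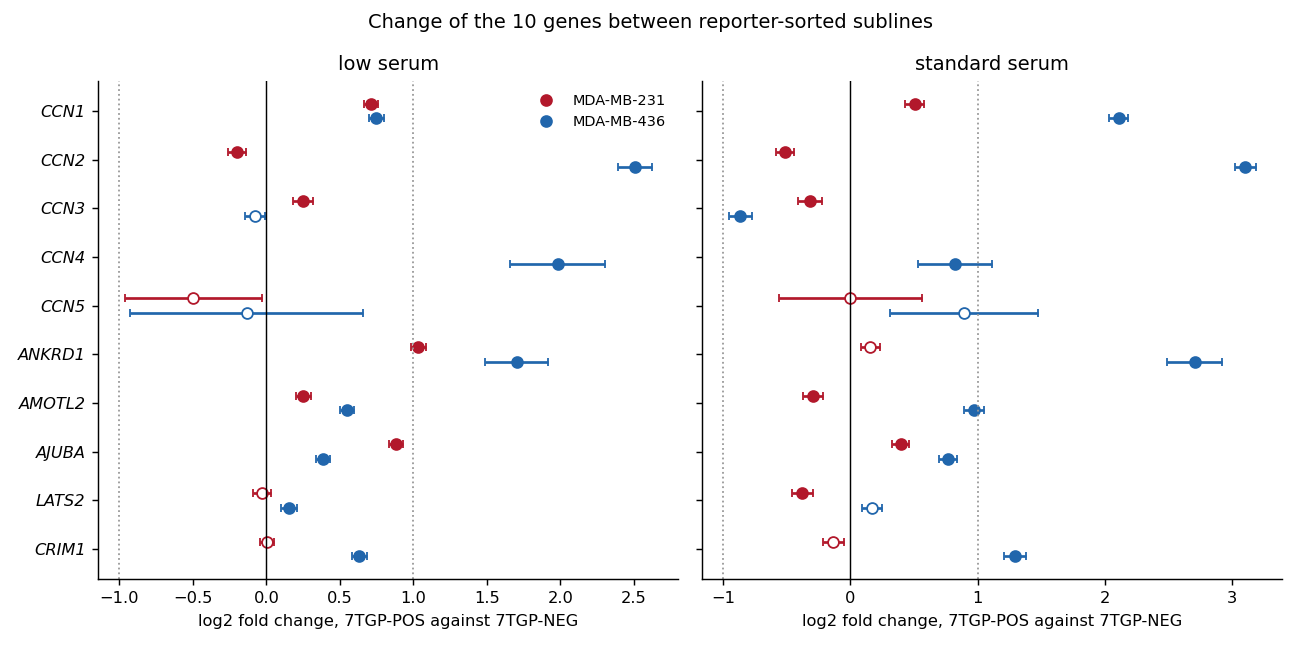
Log2 fold change of 7TGP-POS against 7TGP-NEG (x axis) for each of the 10 genes in low and standard serum, with bars of 1 SE from the edgeR fit; filled points have an adjusted p under 0.05, open points do not, and dotted lines mark a change of 2-fold. CCN2 sits at 2.51 and 3.11 in MDA-MB-436 and at -0.20 and -0.51 in MDA-MB-231; CCN4, at 0 or 1 count in MDA-MB-231, is drawn for MDA-MB-436 only.

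CCN2 (CTGF; ENSG00000118523, chromosome 6, 132269316 to 132272512, GRCh37) encodes a matrix-associated growth factor modulator and is a classical YAP/TAZ target. In MDA-MB-436 in low serum it was at 3.33 and 3.57 CPM in 7TGP-NEG and at 20.3 and 18.9 CPM in 7TGP-POS, a log2 fold change of 2.51 ± 0.12 (SE; edgeR adjusted p = 1.87e-15). In standard serum the same sublines were at 12.9 and 11.8 CPM and at 105 and 107 CPM, a log2 fold change of 3.11 ± 0.08 (edgeR adjusted p = 7.68e-15). In MDA-MB-231 the gene was far more abundant and moved the other way. It was at 206 and 185 CPM in 7TGP-NEG and 182 and 158 CPM in 7TGP-POS in low serum, which did not overlap but nearly met, for a log2 fold change of -0.20 ± 0.06 (edgeR adjusted p = 0.0133). In standard serum it was at 1055 and 1020 CPM against 749 and 705 CPM, a log2 fold change of -0.51 ± 0.07 (edgeR adjusted p = 2.12e-05). The low serum decrease was not held by DESeq2 or by the fit of the 4 MDA-MB-231 libraries alone. It was -0.11 without MDA-MB-231 7TGP-NEG replicate 1 and -0.10 without 7TGP-POS replicate 2, past the threshold in neither. Without MDA-MB-436 7TGP-NEG replicate 1 it was -0.19 and also did not pass. The change in MDA-MB-231 minus that in MDA-MB-436 was -2.70 ± 0.13 in low serum and -3.62 ± 0.11 in standard serum (edgeR interaction, adjusted p = 1.1e-14 and 6.92e-14).

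CCN1 (CYR61; ENSG00000142871, chromosome 1, 86046444 to 86050272) encodes the secreted angiogenic inducer that is closest to CCN2 in regulation, and it rose in 7TGP-POS in all 4 comparisons. In low serum it was at 460 and 447 CPM in MDA-MB-231 7TGP-NEG and at 730 and 755 CPM in 7TGP-POS, the log2 fold change being 0.71 ± 0.05 (edgeR adjusted p = 9.63e-16). The MDA-MB-436 sublines were at 70.5 and 73.9 CPM against 124 and 119 CPM, a log2 fold change of 0.75 ± 0.05 (edgeR adjusted p = 1.15e-15). Between the lines these changes differed by -0.04 ± 0.07, which did not pass (edgeR adjusted p = 0.712). The changes separated in standard serum. MDA-MB-231 went from 2337 and 2285 CPM to 3336 and 3225 CPM, a log2 fold change of 0.51 ± 0.07 (edgeR adjusted p = 2.45e-05), and MDA-MB-436 from 95.7 and 93.6 CPM to 400 and 417 CPM, a log2 fold change of 2.11 ± 0.08 (edgeR adjusted p = 2.26e-13). That difference was -1.61 ± 0.10 (edgeR interaction, adjusted p = 9.84e-10). CCN1 and CCN2 thus went opposite ways in MDA-MB-231 and the same way in MDA-MB-436. The low serum decrease of CCN2 in MDA-MB-231 did not hold under the alternatives given above.

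ANKRD1 (ENSG00000148677, chromosome 10, 92671853 to 92680844) encodes a nuclear and sarcomeric ankyrin repeat protein induced by YAP in many cell types. In MDA-MB-231 in low serum it was at 162 and 176 CPM in 7TGP-NEG and at 342 and 350 CPM in 7TGP-POS, a log2 fold change of 1.03 ± 0.05 (edgeR adjusted p = 4.08e-20). That change lay on the 2-fold line: it was 0.98 without 7TGP-NEG replicate 1 and 0.83 on the log2(TPM + 1) scale, both under it. In standard serum the same sublines were at 1062 and 1018 CPM against 1205 and 1114 CPM, and the log2 fold change of 0.16 ± 0.08 did not pass (edgeR adjusted p = 0.131), although it did, at 0.17, with the 4 MDA-MB-231 libraries alone. In MDA-MB-436 the gene had few reads, 15 to 25 counts per 7TGP-NEG library and 62 to 66 per 7TGP-POS library in low serum, and 10 to 13 against 77 to 102 in standard serum. The log2 fold changes were 1.70 ± 0.21 and 2.71 ± 0.22 (edgeR adjusted p = 6.92e-09 and 1.05e-08). The difference between the lines' changes was -0.67 ± 0.23 in low serum (edgeR interaction, adjusted p = 0.0189; lost in DESeq2) and -2.55 ± 0.23 in standard serum (adjusted p = 9.92e-08). The first was -0.09 on the log2(TPM + 1) scale, and it did not pass there or without MDA-MB-231 7TGP-NEG replicate 2 (-0.56), MDA-MB-436 7TGP-NEG replicate 2 (-0.45) or MDA-MB-436 7TGP-POS replicate 2 (-0.64).

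On the deposited TPM scale CCN3, CCN4 and CCN5 had lower mean levels than CCN1 in all 8 groups. CCN3 (NOV), which often opposes CCN2 in fibrosis models, was at 16.1 to 39.8 CPM in all 16 libraries. In standard serum it fell in MDA-MB-436 from 32.5 and 32.4 CPM in 7TGP-NEG to 17.8 and 17.8 CPM in 7TGP-POS (log2 fold change -0.87 ± 0.09, edgeR adjusted p = 3.6e-07), the only member lower there. In MDA-MB-231 the log2 fold change was 0.25 ± 0.07 (low serum) and -0.32 ± 0.09 (standard serum; edgeR adjusted p = 0.00243 and 0.0143). The first was 0.05 on the log2(TPM + 1) scale and did not pass there. The second was not past the threshold without 7TGP-NEG replicate 1, 7TGP-NEG replicate 2 or 7TGP-POS replicate 2. CCN4 (WISP1), named as a Wnt1-inducible gene, had 0 or 1 count in every MDA-MB-231 library. In MDA-MB-436 it had 12 and 17 counts in 7TGP-NEG and 57 and 56 in low serum 7TGP-POS, or 1.98 ± 0.32 on the log2 scale (edgeR adjusted p = 1.86e-06). In standard serum it had 24 and 31 counts against 69 and 46, a log2 fold change of 0.82 ± 0.29 (edgeR adjusted p = 0.0275) that did not pass in DESeq2 or without MDA-MB-436 7TGP-POS replicate 1 or either 7TGP-NEG replicate. CCN5 (WISP2), which lacks the C-terminal domain of the other CCN proteins, had 3 to 20 counts per library. It passed in none of the 4 comparisons of 7TGP-POS with 7TGP-NEG (log2 fold changes of -0.50 to 0.90, edgeR adjusted p = 0.22 to 1). At this depth no difference between these sublines of a line was detectable. CCN6, the remaining family member, had 0 to 3 counts per library and was not tested.

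AMOTL2, AJUBA and LATS2 act inside the Hippo pathway and are targets of it as well: AMOTL2 is an angiomotin that binds YAP, AJUBA a LIM protein that binds LATS kinases, and LATS2 the kinase itself. AMOTL2 rose in MDA-MB-436 7TGP-POS from 293 and 287 CPM to 428 and 420 CPM in low serum (log2 fold change 0.55 ± 0.05, edgeR adjusted p = 7.58e-13). In standard serum it rose from 189 and 204 CPM to 358 and 413 CPM, a log2 fold change of 0.97 ± 0.08 (edgeR adjusted p = 1.3e-08), just under the 2-fold line and 1.03 without 7TGP-NEG replicate 2 or 1.06 without 7TGP-POS replicate 1. The 7TGP-POS duplicates in question are those whose ratio tracked GC content, and its part in this value was not tested. In MDA-MB-231 AMOTL2 went up in low serum (0.25 ± 0.05, edgeR adjusted p = 8.48e-05) and down in standard serum (-0.29 ± 0.08, edgeR adjusted p = 0.00732). Neither passed on the log2(TPM + 1) scale (0.05 and -0.25), and the second did not pass without MDA-MB-231 7TGP-NEG replicate 1 (-0.27). The difference between the lines' changes was -1.27 ± 0.11 in standard serum (edgeR interaction, adjusted p = 5.87e-08).

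AJUBA rose in all 4 comparisons, though on the log2(TPM + 1) scale its change in MDA-MB-436 in low serum was 0.13 and did not pass. In low serum it rose more in MDA-MB-231, from 143 and 149 CPM to 267 and 271 CPM (log2 fold change 0.88 ± 0.05), than in MDA-MB-436, from 177 and 182 CPM to 233 and 236 CPM (0.38 ± 0.05), a difference of 0.50 ± 0.07 (edgeR interaction, adjusted p = 8.82e-08). In standard serum the order of the lines was the reverse, with log2 fold changes of 0.39 ± 0.07 and 0.77 ± 0.07 and a difference of -0.38 ± 0.10 (edgeR interaction, adjusted p = 0.00477). LATS2 had log2 fold changes between -0.38 and 0.17. Its decrease in MDA-MB-231 in standard serum, from 53.0 and 52.9 CPM to 42.8 and 38.6 CPM, passed (edgeR adjusted p = 0.00131). Its change of 0.15 ± 0.06 in MDA-MB-436 in low serum (edgeR adjusted p = 0.0212) did not hold under several alternatives and was -0.09 on the log2(TPM + 1) scale. CRIM1, a transmembrane protein with CCN-like cysteine-rich repeats that binds BMPs, passed in MDA-MB-436 and not in MDA-MB-231. In MDA-MB-436 it rose from 202 and 198 CPM to 315 and 305 CPM in low serum (log2 fold change 0.63 ± 0.05, edgeR adjusted p = 8.64e-14). In standard serum it rose from 80.4 and 84.3 CPM to 215 and 189 CPM (1.29 ± 0.08, edgeR adjusted p = 7.22e-10). In MDA-MB-231 the log2 fold changes were 0.00 ± 0.05 and -0.14 ± 0.08 (edgeR adjusted p = 0.971 and 0.228). The difference between the lines was -0.63 ± 0.07 and -1.43 ± 0.12 (edgeR interaction, adjusted p = 1.11e-09 and 2.56e-08).

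Tested gene by gene, the change in MDA-MB-231 differed from that in MDA-MB-436 by at least 2-fold with an adjusted p under 0.05 for 1 of the 10 genes in low serum (CCN2) and for 5 in standard serum (CCN1, CCN2, ANKRD1, AMOTL2, CRIM1). All of these were more positive in MDA-MB-436. Over all genes this direction was called for 7.01% in low serum and 6.81% in standard serum.

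The second question was how the levels compared between the cell lines. ANKRD1, CCN2, CCN1 and CRIM1 were higher in MDA-MB-231 among both 7TGP-NEG and 7TGP-POS sublines. Among 7TGP-NEG sublines the log2 fold change of MDA-MB-231 against MDA-MB-436 was 7.93 ± 0.10 and 11.71 ± 0.14 for ANKRD1 in low and standard serum, 5.82 ± 0.10 and 6.39 ± 0.09 for CCN2, 2.65 ± 0.05 and 4.61 ± 0.08 for CCN1 and 1.71 ± 0.05 and 3.58 ± 0.09 for CRIM1 (edgeR adjusted p from 5.45e-42 to 8.61e-17). Among 7TGP-POS sublines they were 3.12 ± 0.07 and 2.77 ± 0.08 for CCN2, 7.26 ± 0.08 and 9.15 ± 0.12 for ANKRD1, 2.61 ± 0.05 and 3.00 ± 0.08 for CCN1 and 1.09 ± 0.05 and 2.15 ± 0.09 for CRIM1. The low serum CRIM1 value ranged from 0.72 to 1.17 over the alternatives. In standard serum the MDA-MB-436 7TGP-POS level of CCN2, 106 ± 1.40 CPM (SD, n = 2), was below the MDA-MB-231 7TGP-NEG level of 1038 ± 24.9 CPM. AMOTL2 ran the other way in low serum, at log2 fold changes of -1.42 ± 0.05 among 7TGP-NEG and -1.72 ± 0.05 among 7TGP-POS sublines. In standard serum it did so among 7TGP-POS sublines (-1.21 ± 0.08, edgeR adjusted p = 8.44e-11) and did not differ among 7TGP-NEG sublines (0.06 ± 0.08). CCN4 was at least 5.13-fold and 8.28-fold higher in MDA-MB-436 7TGP-NEG than in MDA-MB-231 7TGP-NEG in low and standard serum, and at least 19.3-fold and 15.01-fold higher in 7TGP-POS, against a floor of 3 counts per library. By the 2-fold rule 7 of the 10 genes differed between the 7TGP-NEG sublines in low serum and 5 in standard serum, where 41.9% and 46.7% of all genes did. Between the 7TGP-POS sublines 7 and 6 differed, where 38.9% and 45.4% of all genes did. Both low serum counts included CCN5, at 3 to 20 counts per library (2.01 ± 0.57 among 7TGP-NEG and 1.65 ± 0.64 among 7TGP-POS). The value among 7TGP-POS sublines did not pass in DESeq2 (1.70) or on the TPM scales (0.13 and 0.64). It was 1.02 without MDA-MB-231 7TGP-POS replicate 1 and 1.40 without MDA-MB-436 7TGP-POS replicate 2.

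**Figure D3:**
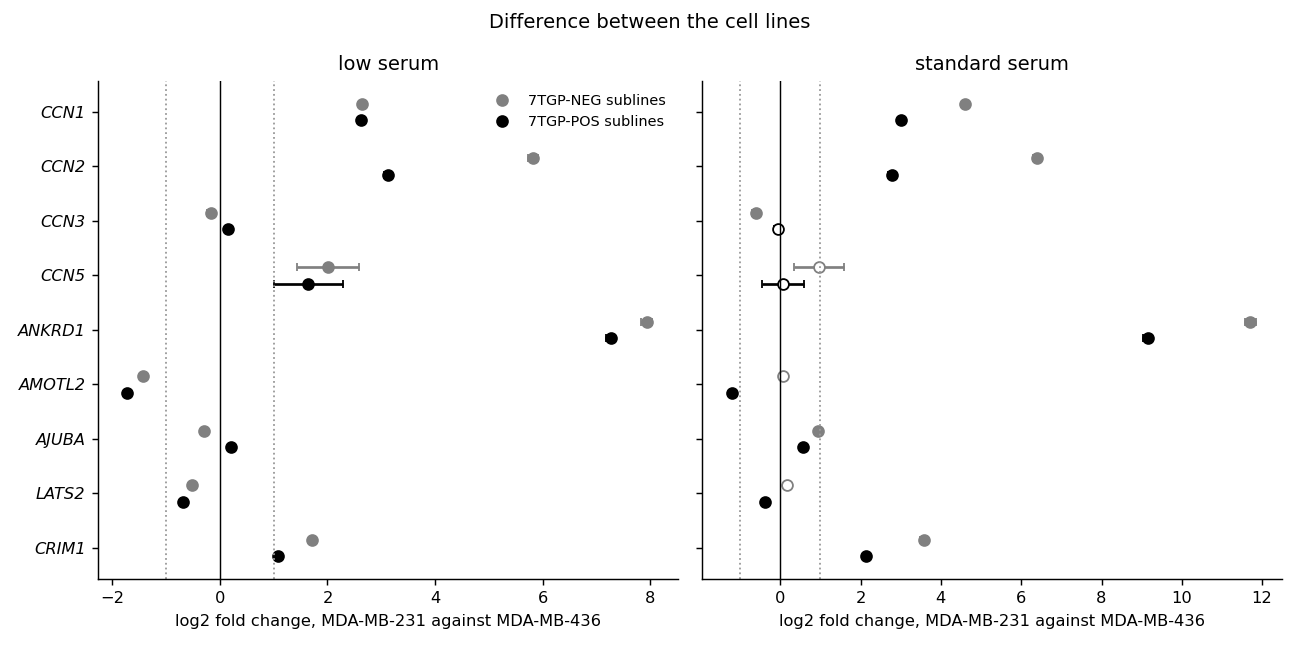
Log2 fold change of MDA-MB-231 against MDA-MB-436 (x axis) among 7TGP-NEG (grey) and 7TGP-POS (black) sublines in each serum condition, with bars of 1 SE from the edgeR fit, many of them shorter than the point; open points have an adjusted p of 0.05 or more and dotted lines mark 2-fold. ANKRD1 lies at 7.93 and 11.71 among 7TGP-NEG sublines, and CCN4, at 0 or 1 count in MDA-MB-231, is left out.

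Ordered over the 4 sublines of a serum condition, several neighbours did not differ. CRIM1 did not differ between the MDA-MB-231 sublines in either condition (adjusted p above), nor LATS2 between them in low serum (edgeR adjusted p = 0.774), nor ANKRD1 in standard serum. The 4 levels of CCN3 in low serum, 32.2 to 38.4 CPM, had no neighbouring pair that differed. AMOTL2 was at 205 ± 4.98 CPM in MDA-MB-231 7TGP-NEG and 196 ± 10.6 CPM in MDA-MB-436 7TGP-NEG in standard serum (SD, n = 2), which did not differ (edgeR adjusted p = 0.489). For CCN2 every neighbouring pair differed in both conditions in the edgeR fit, with 7TGP-NEG above 7TGP-POS in MDA-MB-231 and, below both, 7TGP-POS above 7TGP-NEG in MDA-MB-436. The low serum difference between the MDA-MB-231 sublines did not hold in DESeq2 or with the MDA-MB-231 libraries alone.

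Between genes, levels were compared on the deposited TPM scale, which corrects for length. In standard serum MDA-MB-231 7TGP-NEG held 3142 ± 89.3 TPM of CCN1, 1755 ± 74.5 of ANKRD1, 1481 ± 54.1 of CCN2 and 460 ± 34.0 of CRIM1 (SD, n = 2). In MDA-MB-436 7TGP-NEG the highest of the 10 were CCN1 at 144 ± 0.346 TPM, AMOTL2 at 123 ± 8.88 TPM and AJUBA at 97.2 ± 4.75 TPM, with CCN2 at 19.8 ± 0.827 TPM and ANKRD1 at 0.590 ± 0.156 TPM. In MDA-MB-436 7TGP-POS the TPM of CCN2 was 182 ± 3.73, behind CCN1 at 667 ± 24.7 and AMOTL2 at 258 ± 27.9. The levels of CCN1, CCN2 and ANKRD1 in MDA-MB-231 were also several times higher in standard than in low serum (402.6 ± 5.10, 182 ± 12.6 and 186 ± 12.2 TPM in 7TGP-NEG in low serum), a contrast in which serum, day and library method cannot be told apart.

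Genes whose pattern over the 8 libraries of a serum condition was most like CCN1, CCN2 and ANKRD1 were sought among 12520 protein-coding genes, taking the lower Pearson r of both serum conditions. Among the most alike were TMEM123, IL18 and LDAF1 for CCN1 (r of 0.994 each), IGFBP7 (0.998) and PAM (0.995) for CCN2, and PALLD, RBM24 and SIL1 for ANKRD1 (0.997 each). The 8 libraries fall into 2 cell lines and share their duplicates, so these values are governed by the gap between the lines.

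Among 16 other YAP/TAZ target genes, 4 rose at least 2-fold in low serum MDA-MB-436 7TGP-POS and 7 did so in standard serum. None was called lower. Over all genes 6.52% and 6.47% were called higher. In MDA-MB-231, 2 and 1 rose, beside 3.5% and 4.96% of all genes. Their median log2 fold change in MDA-MB-436 was 0.46 and 0.82, beside 0.01 and 0.00 over all genes. The 4 in low serum were NT5E (CD73, the ecto-5′-nucleotidase; 1.70 ± 0.06), IGFBP3 (an IGF-binding protein; 1.65 ± 0.06), TGFB2 (a TGF-β ligand; 1.58 ± 0.06) and F3 (tissue factor; 1.20 ± 0.10), with edgeR adjusted p from 1.7e-26 to 9.27e-14. NT5E, IGFBP3 and TGFB2 rose again in standard serum, by 1.79 ± 0.08, 1.76 ± 0.08 and 2.29 ± 0.09, beside the receptor tyrosine kinase AXL at 1.12 ± 0.08 (edgeR adjusted p from 3.54e-13 to 1.34e-09). In MDA-MB-231 the called genes were F3 in low serum (1.22 ± 0.05, edgeR adjusted p = 7.74e-23) and the kinase NUAK2 in both conditions (1.35 ± 0.12 and 2.15 ± 0.12, edgeR adjusted p = 3.72e-12 and 1.79e-10).

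**Figure D4:**
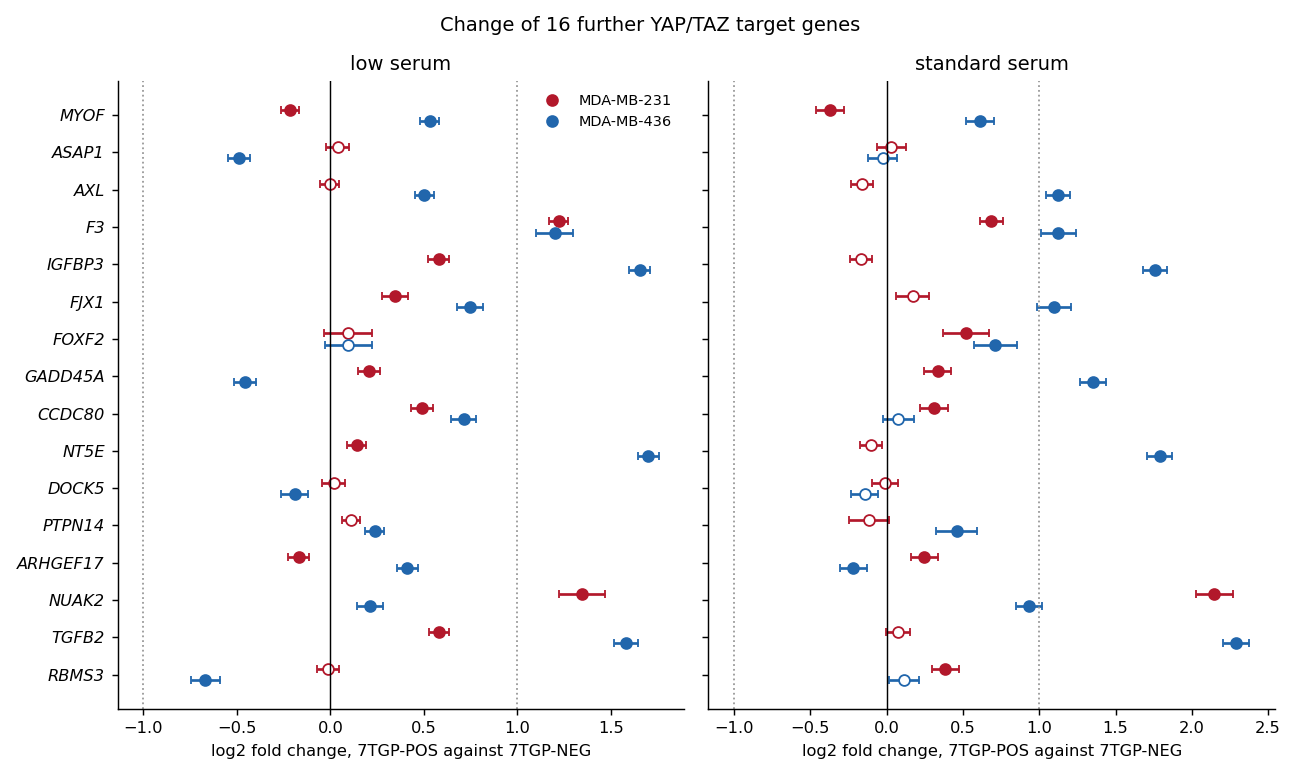
Log2 fold change of 7TGP-POS against 7TGP-NEG (x axis) for 16 further YAP/TAZ target genes in low and standard serum, red MDA-MB-231 and blue MDA-MB-436, with bars of 1 SE from the edgeR fit; filled points have an adjusted p under 0.05 and dotted lines mark 2-fold. NT5E, IGFBP3 and TGFB2 lie above 1.5 in MDA-MB-436 in both conditions, and NUAK2 is the gene farthest to the right in MDA-MB-231.

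Of the YAP/TAZ, TEAD and VGLL factors, 9 of 10 were tested. None was called at 2-fold in MDA-MB-231, where 5.9% and 7.69% of all genes were called in low and standard serum. With 9 genes this is near those shares. In MDA-MB-436, 2 and 1 were called higher and none lower, beside 6.52% and 6.47% of all genes called higher. YAP1 rose in all 4 comparisons, by 0.33 ± 0.05 (MDA-MB-231) and 0.24 ± 0.05 (MDA-MB-436) in low serum and by 0.32 ± 0.08 and 0.59 ± 0.08, respectively, in standard serum (edgeR adjusted p = 7.88e-07, 0.000169, 0.00298 and 5.16e-06). WWTR1, which encodes TAZ, fell in MDA-MB-231 (-0.43 ± 0.05 and -0.59 ± 0.08, edgeR adjusted p = 4.34e-09 and 1.34e-05) and rose slightly in MDA-MB-436 (0.17 ± 0.06 and 0.21 ± 0.08, edgeR adjusted p = 0.0107 and 0.0395). The lines' changes differed by -0.59 ± 0.08 and -0.80 ± 0.11 (edgeR interaction, adjusted p = 1.35e-08 and 1.94e-05). Of the TEAD factors, TEAD1 rose in MDA-MB-436 in standard serum (0.72 ± 0.08, edgeR adjusted p = 1.25e-06) and by 0.13 ± 0.05 in low serum (edgeR adjusted p = 0.0305). TEAD2 rose in MDA-MB-436 in low serum (0.29 ± 0.07, edgeR adjusted p = 0.000325), TEAD3 fell in MDA-MB-231 in both conditions (-0.31 ± 0.06 and -0.27 ± 0.08) and TEAD4 fell in all 4 comparisons (-0.28 to -0.42, edgeR adjusted p up to 0.0325). VGLL3, a TEAD-binding co-factor, rose in MDA-MB-436 by 2.83-fold and 5.71-fold (edgeR adjusted p = 2.27e-10 and 1.92e-07). VGLL2, another, had 3 counts in each MDA-MB-436 7TGP-NEG library and 18 to 22 in 7TGP-POS in low serum, at least 7.21-fold higher. In standard serum it had 1 to 3 counts against 3 to 5.

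Of 24 Hippo kinases, scaffolds and upstream regulators, 1 and 0 rose at least 2-fold in MDA-MB-231 in low and standard serum and 3 and 1 in MDA-MB-436, with none lower. Over all genes 3.5% and 4.96% were called higher in MDA-MB-231 and 6.52% and 6.47% in MDA-MB-436. The MDA-MB-231 counts and the standard serum count in MDA-MB-436 are near or below these shares. The genes called were the scaffold WWC1 (KIBRA) in MDA-MB-231 (1.38 ± 0.06, edgeR adjusted p = 8.15e-23), and in MDA-MB-436 FRMD6 (1.00 ± 0.06 and 1.73 ± 0.08, edgeR adjusted p = 6.01e-19 and 4.26e-12) and the protocadherins FAT4 and DCHS1 in low serum (1.75 ± 0.17 and 1.09 ± 0.19, edgeR adjusted p = 3.37e-06 and 4.31e-06). LATS1 fell slightly in low serum in both lines (-0.23 ± 0.07 and -0.22 ± 0.06, edgeR adjusted p = 0.0122 and 0.00481) and did not pass in standard serum. NF2 (merlin), an upstream activator of the LATS kinases chosen after its values were seen, had 2 to 10 counts per MDA-MB-436 library and 496 to 752 per MDA-MB-231 library.

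Contractile and SRF/MRTF genes, which share several inputs with YAP, included 4 of 16 tested that rose at least 2-fold in MDA-MB-436 7TGP-POS in low serum. In standard serum 4 of 15 did so, and none was lower in either, beside 6.52% and 6.47% of all genes called higher. TPM1 and TPM2, which encode tropomyosins, rose by 1.29 ± 0.05 and 2.20 ± 0.14 under low serum. Under standard serum they rose by 1.68 ± 0.07 and 1.53 ± 0.30. The actin gene ACTA2 rose by 1.43 ± 0.23 and 1.38 ± 0.18 (edgeR adjusted p from 2.97e-23 to 0.012). MYL9, a myosin light chain, had 0 or 1 count in MDA-MB-436 7TGP-NEG libraries and was at least 73.9-fold and 83.5-fold higher in 7TGP-POS. In MDA-MB-231, 1 gene of the list was called, TPM2, which went from a mean of 94.9 CPM to 47.3 CPM in low serum (edgeR adjusted p = 0.00127). Over all genes 5.9% were called there in low serum and 7.69% in standard serum, in either direction. The low serum count is near that share. Of 8 receptors of CCN proteins, ITGB3, the β3 integrin subunit, fell in MDA-MB-231 (-1.33 ± 0.15 and -1.39 ± 0.16, edgeR adjusted p = 1.09e-09 and 5.72e-06) and rose in MDA-MB-436 in standard serum from 1 to 7 counts to 22 to 26 counts (2.31 ± 0.51, edgeR adjusted p = 0.00146). LRP1, a scavenger receptor that binds CCN2, fell in MDA-MB-436 in standard serum (-1.24 ± 0.15, edgeR adjusted p = 0.000291).

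Because the sublines were sorted on a Tcf/Lef reporter, 6 canonical Wnt target genes were read beside the set. AXIN2, the usual readout of β-catenin activity, rose in MDA-MB-231 in low serum (0.65 ± 0.11, edgeR adjusted p = 8.29e-06) and did not pass in the other 3 comparisons (0.33 ± 0.19 in MDA-MB-231 in standard serum, 0.36 ± 0.18 and -0.12 ± 0.22 in MDA-MB-436; edgeR adjusted p = 0.21, 0.106 and 0.684). In MDA-MB-231, LGR5 was called higher in low serum (1.40 ± 0.22, edgeR adjusted p = 1.75e-06) and RNF43 in standard serum (1.11 ± 0.19, edgeR adjusted p = 0.000166). In MDA-MB-436, NKD1 was called lower in low serum (-1.21 ± 0.22, edgeR adjusted p = 1e-05), and RNF43, at under 0.3 CPM, was called lower in standard serum (edgeR adjusted p = 0.00828). The 5 mesenchymal markers went in both directions. By adjusted p, 2 were higher and 1 lower in low serum and 1 higher and 2 lower in standard serum in MDA-MB-231, and 2 higher and 2 lower, then 3 higher and 1 lower, in MDA-MB-436. Over all genes 38.9% and 33% passed in either direction in MDA-MB-231 in low and standard serum, and 52% and 49.5% in MDA-MB-436. At 2-fold, VIM fell in MDA-MB-231 (-1.05 ± 0.05 and -1.03 ± 0.08, edgeR adjusted p = 2.69e-20 and 1.17e-08), and FN1 fell there in standard serum (-2.14 ± 0.10, edgeR adjusted p = 3.75e-11) and rose in MDA-MB-436 in low serum (1.37 ± 0.05, edgeR adjusted p = 1.42e-24). SNAI2 rose under 2-fold in MDA-MB-231 (0.67 ± 0.09 and 0.70 ± 0.12, edgeR adjusted p = 1.16e-07 and 0.000146), and VIM and CDH2 rose under 2-fold in MDA-MB-436 in standard serum (0.49 ± 0.08 and 0.75 ± 0.08, edgeR adjusted p = 4.77e-05 and 6.62e-07). Of the epithelial markers, ESRP1 fell in MDA-MB-231 (-1.08 ± 0.32, edgeR adjusted p = 0.013) and CLDN4 in MDA-MB-436 (-1.21 ± 0.12, edgeR adjusted p = 1.71e-07), both in standard serum. Of the fibroblast markers, LUM rose in MDA-MB-231 in standard serum (1.11 ± 0.36, edgeR adjusted p = 0.0253), and DPT had 0 to 1 count in MDA-MB-436 7TGP-NEG and 19 to 24 in 7TGP-POS in low serum. Of the receptors that triple-negative tumours lack, PGR fell in MDA-MB-436 in low serum (-1.93 ± 0.46, edgeR adjusted p = 0.000545), and ESR1 had 0 counts in MDA-MB-231 7TGP-NEG and 20 to 25 in 7TGP-POS in standard serum. The part of these genes in the changes of the 10 was not tested.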

How the data were processed

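RNA-seq libraries of 4 reporter-sorted sublines were analysed in low and standard serum. The authors aligned reads with STAR to hg19 with Gencode v19 and deposited raw counts per gene and TPM values; how the deposited TPM was computed is not given in the sources used here. The submitters' processing notes list STAR 2.6.1a and edgeR 3.22.5. The labels name 1 TruSeq kit for all libraries, whereas the study's methods give different kits per serum condition. Gene coordinates and biotypes are from Gencode v44 on GRCh37. The counting strand is not stated, and CCN2, CCN3, CCN5, AJUBA, AMOTL2, LATS2 and CRIM1 overlap other annotated genes.

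For each serum condition, 1 edgeR 4.0.16 quasi-likelihood model (R 4.3.3, TMM, robust dispersion, prior count 0.125) was fitted to the 8 libraries over protein-coding genes with at least 10 summed counts (16069 and 15414 genes). The SE was derived from the F statistic. Adjusted p is Benjamini-Hochberg over all genes. A group with at most 3 counts in every library was treated as at the floor. On simulated counts, 99.5% of 200 genes changed 4-fold were recovered for the MDA-MB-231 comparison in each serum condition, with 2 other genes called among 15917 and 15308 genes. The changed genes were drawn above a minimum mean count, with the same dispersion for every gene and no gap between the cell lines. The simulation therefore does not cover 2-fold changes, genes with few counts or the spread of the real duplicates. DESeq2 1.42.0, limma 3.58.1 on log2(TPM + 1) and log2(TPM + 0.1), filters and left-out libraries were tried.

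Duplicates differed by more than sampling noise in all 8 groups (chi-square per degree of freedom of 3.11 to 28.2), so none was counted as 1 sample. The members and gene lists were chosen with earlier results of these data known. The genes named are the 10 members, CCN6, YAP1, WWTR1, TEAD1 to TEAD4, LATS1, AXIN2, at most 4 called genes per other list and comparison by adjusted p, and for CCN1, CCN2 and ANKRD1 the 3 most correlated genes, of which 1 is not reported here. Total counts of 27918418 to 46044073 limit precision for CCN4, CCN5 and, in MDA-MB-436, ANKRD1.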

Additional observations from a re-analysis of the deposited data

Results flagged for a closer look

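In standard serum, the change from 7TGP-NEG to 7TGP-POS differed between the cell lines for 5 of the 10 genes, by an edgeR interaction test with a difference of at least 2-fold, and in low serum for 1, beside 6.81% and 7.01% of all genes called in this direction, so that the low serum count is near the share over all genes. As log2 fold change in MDA-MB-231 minus that in MDA-MB-436, the values were -3.62 for CCN2, -2.55 for ANKRD1, -1.61 for CCN1, -1.43 for CRIM1 and -1.27 for AMOTL2 in standard serum, and -2.70 for CCN2 in low serum. Of these 5 genes, CCN2 and AMOTL2 fell in MDA-MB-231 and rose in MDA-MB-436 in standard serum with both changes past the threshold, although the AMOTL2 fall did not pass on the TPM scales (-0.25 on both) or without MDA-MB-231 7TGP-NEG replicate 1 (-0.27), and for the other genes the MDA-MB-231 change was smaller or did not pass. In MDA-MB-436 7TGP-NEG, where ANKRD1 had 10 to 13 counts per library in standard serum, its value rests on few reads. No group held enough libraries for a search for single outlying samples.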

How the results depend on the processing

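Counts of the 10 genes called by adjusted p and 2-fold change stayed within 1.5 times for most alternatives. On log2(TPM + 1) the low serum counts became 0 of 10 in MDA-MB-231 and 1 in MDA-MB-436. Over all genes 1.88% and 4.93% were called there, against 5.9% and 10.5% in the count fit. On log2(TPM + 0.1) the counts became 0 in MDA-MB-231 and 2 for the difference between the lines' changes, beside 5.48% and 13.7% of all genes. Relative to the count fit, the TPM scale shifted the median gene at 1 CPM or more by -0.19 in MDA-MB-231 and -0.24 in MDA-MB-436 in low serum. A test against a fold change of 2 called 0 in MDA-MB-231 in low serum, beside 2.19% of all genes. With adjusted p alone and no fold threshold the counts were 6 and 8 in MDA-MB-231 and MDA-MB-436 in low serum, 6 and 8 in standard serum, and 6 and 8 for the difference between the lines' changes in low and standard serum. Leaving out each library in turn gave 0 to 1 in MDA-MB-231 and 3 to 3 in MDA-MB-436 in low serum, 0 to 0 and 4 to 5 in standard serum, 1 to 1 and 5 to 5 for the difference, 7 to 7 and 5 to 5 between 7TGP-NEG sublines and 6 to 7 and 6 to 6 between 7TGP-POS sublines. The library whose loss ended the call of ANKRD1 was MDA-MB-231 7TGP-NEG replicate 1. Values that changed sign on the TPM scales in low serum were LATS2 in MDA-MB-436 (-0.0929 and -0.0951), and between 7TGP-POS sublines CCN3 (-0.188 and -0.193) and AJUBA (-0.155 and -0.157). In the count fit they were 0.15, 0.16 and 0.20. The median gene itself shifted on these scales by -0.24 and -0.25 in MDA-MB-436. Between the 7TGP-POS sublines it shifted by -0.34 and -0.35. These sign changes are therefore no larger than the shift of the median gene would give. Of 1689 recomputed single-gene values, 1585 kept direction and side of the threshold, 55 lost and 11 gained the threshold, 6 changed sign and 32 changed sign with neither value past the threshold. The replicate numbers were not treated as a pairing in the reported fit. Deviations of same-numbered 7TGP-NEG and 7TGP-POS libraries from their group means correlated by -0.01 to 0.15 for MDA-MB-231 and -0.09 to 0.14 for MDA-MB-436. In both lines the higher value was that of standard serum. Whether same-numbered libraries shared a culture or batch was not tested. With the replicate block the counts of called members were 1, 3, 0 and 4 in the 4 comparisons of 7TGP-POS with 7TGP-NEG, with no call of a member changed.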
